A study of Mus musculus with 6 samples.

Results

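The genes described here are the ligands, receptors and Smads of the TGF-beta and bone morphogenetic protein (BMP) pathways, with the proteins that store, trap or limit them. They were picked by gene symbol, with earlier results of these data known. The rule took rows whose name starts with Tgfb, Bmp, Acvr, Smad, Ltbp, Inhb, Gdf, Grem or Fst. It also took Ski, Skil, Nog, Chrd, Pmepa1, Smurf1 and Smurf2. The rule found 72 of the 21878 genes in the table, of which 43 were expressed highly enough to be tested. The name rule also brought in 3 genes outside the signalling chain, namely Tgfbi, Tgfb1i1 and Bmp2k.

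All 6 RNA-seq libraries came from NIH3T3, an immortalised mouse embryo fibroblast line, and all carried the label of a radiation injury and a time point of 72 h. In 3 libraries the cells had received exosomes, vesicles shed by cells and isolated here from plasma according to the series title, and in 3 they had received phosphate-buffered saline (PBS). Neither the radiation dose nor the source animal of the plasma is given in the labels, and nothing there states that replicates are separate cultures. The p-values therefore describe library-to-library spread, part or all of which may be technical. An unirradiated group was not analysed here.

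Estimated depth was 18800000 to 22000000 counted reads per library, and within-group correlations across genes were 0.9944 to 0.997. All 10 fibroblast markers were found in the libraries, at summed values of 5465 to 5719.9 FPKM (mapped fragments scaled to transcript length and library size) with PBS and 6662 to 7013 with exosomes. Of 10 leukocyte markers 7 were above 0, with sums of 3.54 to 4.90 FPKM with PBS and 1.88 to 2.60 with exosomes, and Cd3e and Tyrobp were among the 3 listed at 0. Endothelial markers summed to 0.372 to 0.558 and 0.228 to 0.337 FPKM (7 of 7 above 0), epithelial markers to 0.372 to 0.547 and 0.310 to 0.361 (5 of 6, Krt5 at 0), erythroid and platelet markers to 2.65 to 4.99 and 3.86 to 4.60 (6 of 8, Alas2 and Gp9 at 0) and plasma protein genes of the liver to 0.135 to 0.386 and 0.192 to 0.302 (4 of 7, Apoa2, Ttr and Fga at 0). The fibroblast sum was higher, and the leukocyte, endothelial and epithelial sums lower, in every exosome library than in every PBS library. Single markers did not all follow their sum. Of 9 tested fibroblast markers 5 rose and 2 fell, S100a4 from a mean of 1428 to 1195 FPKM and Pdgfrb from 47.1 to 40.4. In the leukocyte sum Csf1r went from a mean of 1.92 to 0.295 FPKM and Cd68 from 1.90 to 1.81. The 1 tested erythroid and platelet marker, Itga2b, was called raised, from a mean of 1.9 to 2.8 FPKM. Ppbp of the same list, which was not tested, went from 1.3 to 0.88. The part of these markers in the results below was not tested.

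TGF-beta family ligands are secreted as dimers and bind a type II receptor, which activates a type I receptor. The type I receptor phosphorylates Smad2 and Smad3 in response to TGF-beta and activin, or Smad1, Smad5 and Smad9 in response to BMPs, and these enter the nucleus with Smad4. Smad6 and Smad7, the Smurf ubiquitin ligases and the corepressors Ski and Skil hold the signal back, and in fibroblasts the pathway is known for driving matrix production and the change to contractile myofibroblasts.

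With exosomes, 10 of the 43 tested genes rose and 12 fell, and 21 did not pass the test (limma on log2(FPKM + 1), adjusted p under 0.05 over all genes). Among all 10274 genes tested, 43.8% were called, 25.4% as raised and 18.4% as lowered, so the 51.2% called here is near the share of all genes. The values of the groups did not overlap in 24 of the 43 genes, or 55.8%, beside 55.6% of all tested genes (11 with exosome values above, beside 32.0%, and 13 below, beside 23.5%). The median log2 change was -0.01, beside 0.04 for all genes, and the median size of a change was 0.21 beside 0.15. In bulk RNA, fewer cells expressing a gene and less RNA per cell cannot be told apart. The authors' deposited table, which rests on counts, called 6 genes raised and 14 lowered among the 60 with an adjusted p, and its share over all genes was 25.9% (12.4% raised and 13.5% lowered). The count of raised genes fell to 6 without PBS library 1 and to 5 without exosome library 2. Counts over all genes with a library left out are not given here, so a loss of calls common to all genes cannot be told apart.

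**Figure D1:**
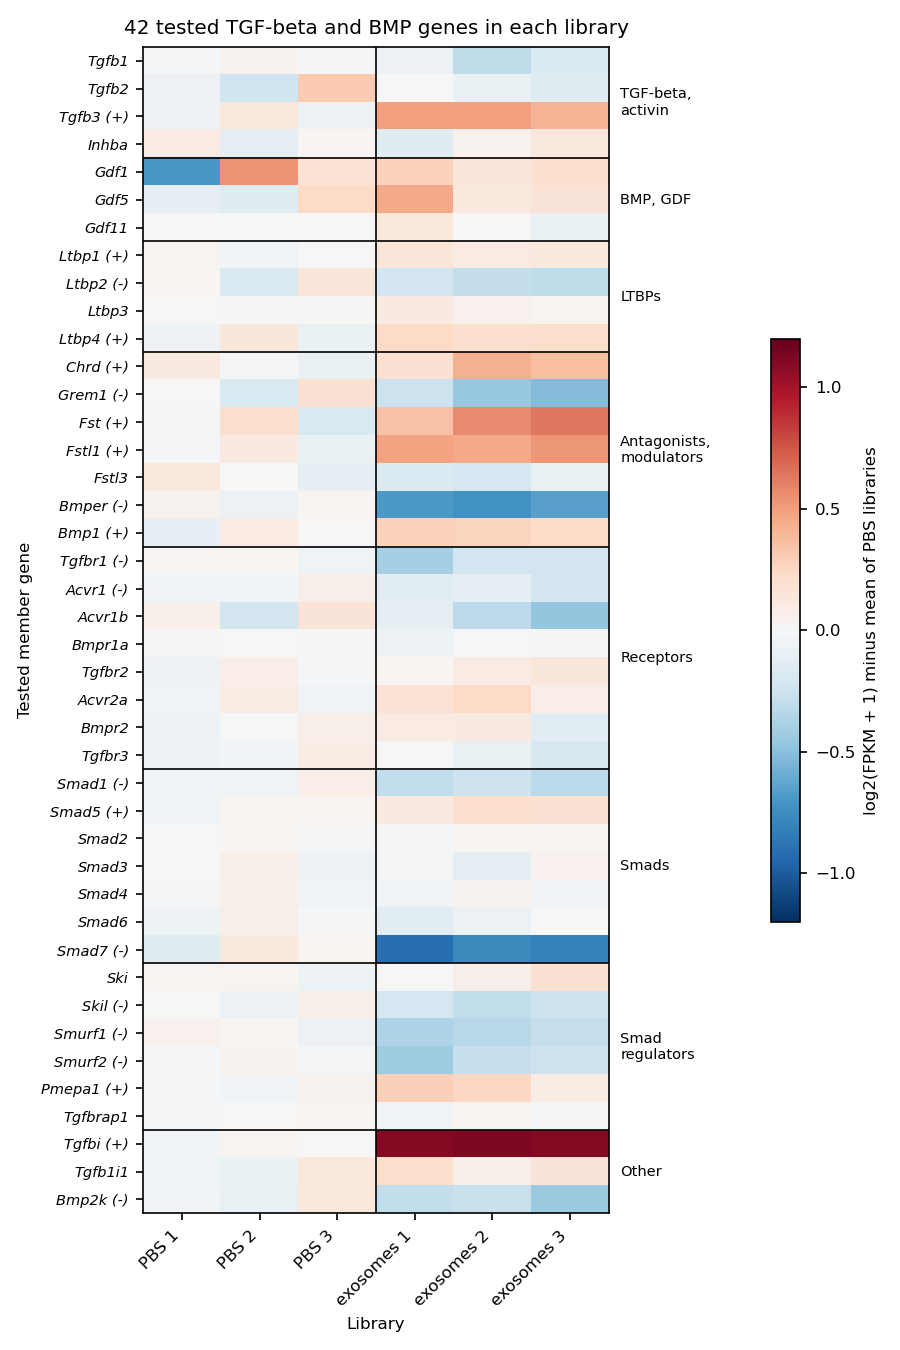
Heat map of 42 of the 43 tested genes (rows, grouped by role) in the 6 libraries (columns). Colour is log2(FPKM + 1) minus the mean of the 3 PBS libraries, and (+) or (-) after a name marks the genes called raised or lowered. Tgfbi is the darkest red row and Smad7 the darkest blue row among the exosome libraries.

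Promoter windows from RefSeq (build GRCm38.p6, 250 bases before to 50 after the start) were found for 52 of the 72 genes. Of the 43 tested genes 31 had a window. Those without one, among them Smad7, Tgfb3, Skil, Fst, Bmp1 and Pmepa1, could not be searched. The windows found are those described here. They were searched on both strands for GTCTAGAC, the palindrome to which Smad3 and Smad4 bind, for GGCGCC, a GC-rich Smad site of BMP target genes, for TGANTCA, the AP-1 site, and for CACGTG, the E-box of Myc and related factors. Shown are the windows of the raised and of the lowered gene with the largest change among those with a single window, Tgfbi and Bmper, and of Smad6, the one tested gene whose window held the palindrome. They lie at chr13:56609336-56609635 (plus strand), chr9:23222826-23223125 (plus strand) and chr9:64022010-64022309 (minus strand). Capitals mark GGCGCC in Tgfbi and GTCTAGAC in Smad6, and neither sequence nor its complement occurs in the Bmper window.
Tgfbi: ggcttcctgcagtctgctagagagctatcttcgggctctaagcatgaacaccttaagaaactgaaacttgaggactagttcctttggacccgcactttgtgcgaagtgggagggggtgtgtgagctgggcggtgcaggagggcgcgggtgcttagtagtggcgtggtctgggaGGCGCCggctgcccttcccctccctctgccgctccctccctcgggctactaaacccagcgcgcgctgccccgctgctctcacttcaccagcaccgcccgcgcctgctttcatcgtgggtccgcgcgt
Bmper: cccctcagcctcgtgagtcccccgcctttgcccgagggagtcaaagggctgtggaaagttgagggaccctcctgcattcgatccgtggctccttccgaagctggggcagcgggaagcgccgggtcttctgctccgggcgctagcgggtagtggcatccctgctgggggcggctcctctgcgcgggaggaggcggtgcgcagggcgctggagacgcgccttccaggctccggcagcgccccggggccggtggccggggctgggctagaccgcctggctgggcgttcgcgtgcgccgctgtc
Smad6: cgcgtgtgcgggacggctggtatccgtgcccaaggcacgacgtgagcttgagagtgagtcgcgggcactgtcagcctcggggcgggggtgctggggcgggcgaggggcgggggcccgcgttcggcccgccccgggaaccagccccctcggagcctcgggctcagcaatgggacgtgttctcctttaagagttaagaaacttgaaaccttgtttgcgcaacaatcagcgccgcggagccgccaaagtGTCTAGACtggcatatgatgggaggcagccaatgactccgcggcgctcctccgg

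GTCTAGAC occurred in the window of 1 of 31 tested pathway genes with a window (3.23%) and in 0.251% of all tested genes with one. For GGCGCC the counts were 14 of 31 (45.2%) beside 25.8%, with 4 of the 9 lowered and 4 of the 6 raised genes that had a window. Some genes had several windows, and a gene was counted if any of them held the site. By window the counts were 4 of 10 (40.0%) for lowered and 6 of 11 (54.55%) for raised genes, beside 21.85% for all tested genes. TGANTCA was found in 1 gene, Ltbp3 (3.23% beside 5.64%), and CACGTG in 3 (9.68% beside 12.3%), with 0 raised or lowered genes holding either. Smad6, whose palindrome begins 4 bases before the start, did not pass the test, and its values are given below. A match of letters is a description of the window and says nothing of binding.

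Among the TGF-beta and activin ligands Tgfb3 rose, Tgfb1 missed the threshold, and Tgfb2 and Inhba lay within their spread. Tgfb3, an isoform prominent in wound and palate development, was 18.2, 20.9 and 18.1 FPKM in PBS libraries 1 to 3 and 27.2, 27.2 and 25.5 in exosome libraries 1 to 3. All exosome values lay above all PBS values (log2 change 0.47 ± 0.06 SE, limma adjusted p = 0.000379, 1.40-fold in mean FPKM). Tgfb1, the isoform most tied to fibrosis, was 13.4, 14.0 and 13.3 FPKM with PBS and 13.0, 10.8 and 12 with exosomes. The exosome values were all lower, by little in library 1, and the change of -0.17 ± 0.07 did not pass (adjusted p = 0.0579). It passed without exosome library 1 (adjusted p = 0.0225), with median-of-ratios scaling (-0.20, adjusted p = 0.0285) and in the authors' deposited table (log2 fold -0.28, adjusted p = 0.0115). Tgfb2 ran from 3.77 to 6.03 FPKM with PBS and from 4.10 to 4.65 with exosomes (adjusted p = 0.652), and Inhba, which encodes the subunit of activin A, from 1.09 to 1.43 and from 1.06 to 1.48 (adjusted p = 0.95). Inhbb stayed under 0.0933 FPKM or at that value in every library, and Inhbc and Inhbe were listed at 0.

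The 3 isoforms together came to 37.3 ± 1.35 FPKM with PBS (SD, n = 3) and 42.9 ± 1.74 with exosomes. Tgfb3 made up 50.6%, 54.0% and 48.3% of that sum in PBS libraries 1 to 3 and 60.6%, 64.3% and 61.3% in exosome libraries 1 to 3. The share of Tgfb1 went from 36.3% ± 0.885 to 27.8% ± 2.01. These shares did not overlap between groups. Shares of a sum depend on each other, so the lower Tgfb1 share follows in part from the rise of Tgfb3. With 3 libraries against 3 an exact two-sided permutation test cannot go below p = 0.1, so none is given.

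Of the 20 BMP and GDF ligands 3 were tested, and none of the 3 passed (limma, adjusted p of 0.135 to 0.882). Gdf11, a ligand that signals through activin-type receptors, was the highest at 8.06 to 8.14 FPKM with PBS and 7.61 to 8.90 with exosomes. Gdf5, a ligand of joint and skeletal development, was 1.93, 1.82 and 2.70 FPKM with PBS and 3.29, 2.39 and 2.48 with exosomes. The groups overlapped (log2 change 0.24 ± 0.12, adjusted p = 0.135), although the change passed without PBS library 3 (adjusted p = 0.0211). Gdf1 ranged from 0.226 to 1.90 FPKM, but the authors' deposited table gives it 0 normalized counts in both groups, and its RefSeq span overlaps that of Cers1, so its level is uncertain. Bmp2, Bmp4, Gdf2, Gdf3, Gdf6, Gdf7 and Gdf10 were listed at 0 in every library and at 0 mean counts. The other ligands were at or under 0.407 FPKM, the value of Gdf9 in exosome library 1.

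Latent TGF-beta binding proteins tether the inactive cytokine to the matrix. Of the 4 genes 2 rose and 1 fell, beside 25.4% raised and 18.4% lowered among all tested genes. Ltbp3 and Ltbp1 led in level at 49.7 to 54.0 and 32.8 to 37.2 FPKM over the 6 libraries. Ltbp1 rose slightly, from 34.3, 32.8 and 33.5 to 37.2, 35.9 and 36.4 FPKM (log2 change 0.12 ± 0.04, adjusted p = 0.0451). Ltbp4 rose from 4.18, 4.94 and 4.09 to 5.37, 5.14 and 5.22 FPKM (0.21 ± 0.07, adjusted p = 0.0334). Both calls were weak. Ltbp1 lost its call when any 1 of the 6 libraries was left out (adjusted p of 0.0686 to 0.114), and Ltbp4 lost it without PBS library 1 (0.112) or 3 (0.097) and without exosome library 1 (0.0949), 2 (0.0673) or 3 (0.0745). In the authors' deposited table neither passed (adjusted p = 0.49 and 0.454).

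Ltbp2, a microfibril protein that does not bind latent TGF-beta, fell from 21.6, 18.7 and 23.6 FPKM with PBS to 17.9, 17.2 and 17.0 with exosomes. The exosome values lay below all PBS values and close together (log2 change -0.27 ± 0.07, adjusted p = 0.0148, but 0.0528 without PBS library 1). Its share of the summed FPKM of the 4 genes was 17.6% to 21.1% with PBS and 15.4% to 15.6% with exosomes. The sum itself was 109 ± 2.98 FPKM with PBS and 112 ± 2.51 with exosomes.

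**Figure D2:**
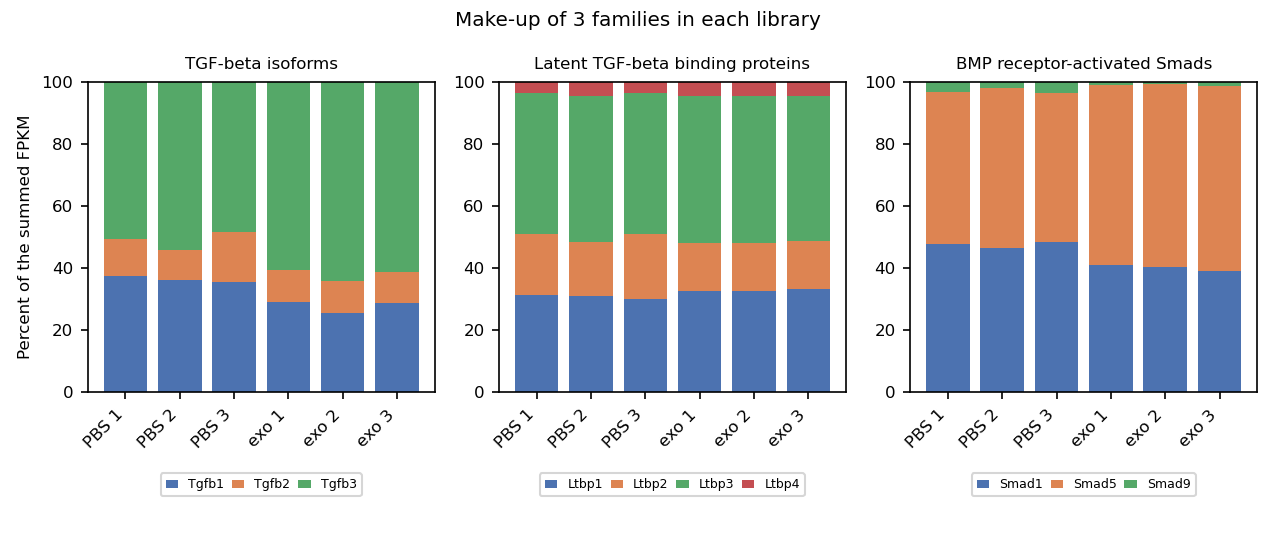
Stacked bars of the percent of the summed FPKM that each gene contributes in 3 families, for each of the 6 libraries (exo, exosomes). The Tgfb3 share is 48.3% to 54.0% in PBS libraries and 60.6% to 64.3% in exosome libraries, and the Smad5 share 48.0% to 51.3% and 57.7% to 59.5%.

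Of the 8 tested secreted antagonists and modulators, 4 rose, 3 fell and 1 did not pass, beside 25.4% raised and 18.4% lowered among all tested genes. Grem1 and Bmper, whose proteins bind BMPs, fell, and Chrd, whose protein also binds them, rose. Bmper, an extracellular protein that binds BMPs and can restrain or favour their action, was 13.9, 12.8 and 13.7 FPKM with PBS and 7.94, 7.74 and 8.20 with exosomes. The groups were far apart, the PBS mean being 1.69 times the exosome mean (log2 change -0.69 ± 0.05, adjusted p = 1.27e-05). Grem1, which encodes the secreted BMP antagonist gremlin, was 2.41, 2.02 and 2.88 FPKM with PBS and 1.86, 1.49 and 1.38 with exosomes. All exosome values were lower (-0.41 ± 0.10, adjusted p = 0.0102).

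Chrd, which encodes chordin, went the other way, from 1.86, 1.63 and 1.5 to 2.02, 2.58 and 2.41 FPKM. The gap between groups was small, and the call (log2 change 0.32 ± 0.08, adjusted p = 0.0118) ended without exosome library 2 (0.0511). Bmp1, a metalloprotease that cleaves chordin and procollagens and is no BMP ligand, rose from 13.5, 15.6 and 14.6 to 17.8, 17.7 and 17.3 FPKM (0.26 ± 0.06, adjusted p = 0.00564). Nog, the gene of noggin, was listed at 0 throughout.

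Fst, which encodes follistatin, the trap of activins, rose from 2.06, 2.61 and 1.74 to 2.97, 3.61 and 3.83 FPKM. All exosome values were higher (log2 change 0.52 ± 0.11, adjusted p = 0.00478). Fstl1, a secreted glycoprotein with a follistatin domain, was the most abundant of the 72 genes and rose from 255, 280.1 and 245 to 364, 356 and 375 FPKM (0.49 ± 0.06, adjusted p = 0.000194). Fstl3, another activin trap, ran from 6.87 to 8.21 FPKM with PBS and from 6.36 to 7.07 with exosomes, and did not pass (-0.15 ± 0.07, adjusted p = 0.104, but 0.0363 without PBS library 3). Fstl4 and Fstl5 were at or under 0.0225 FPKM.

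**Figure D3:**
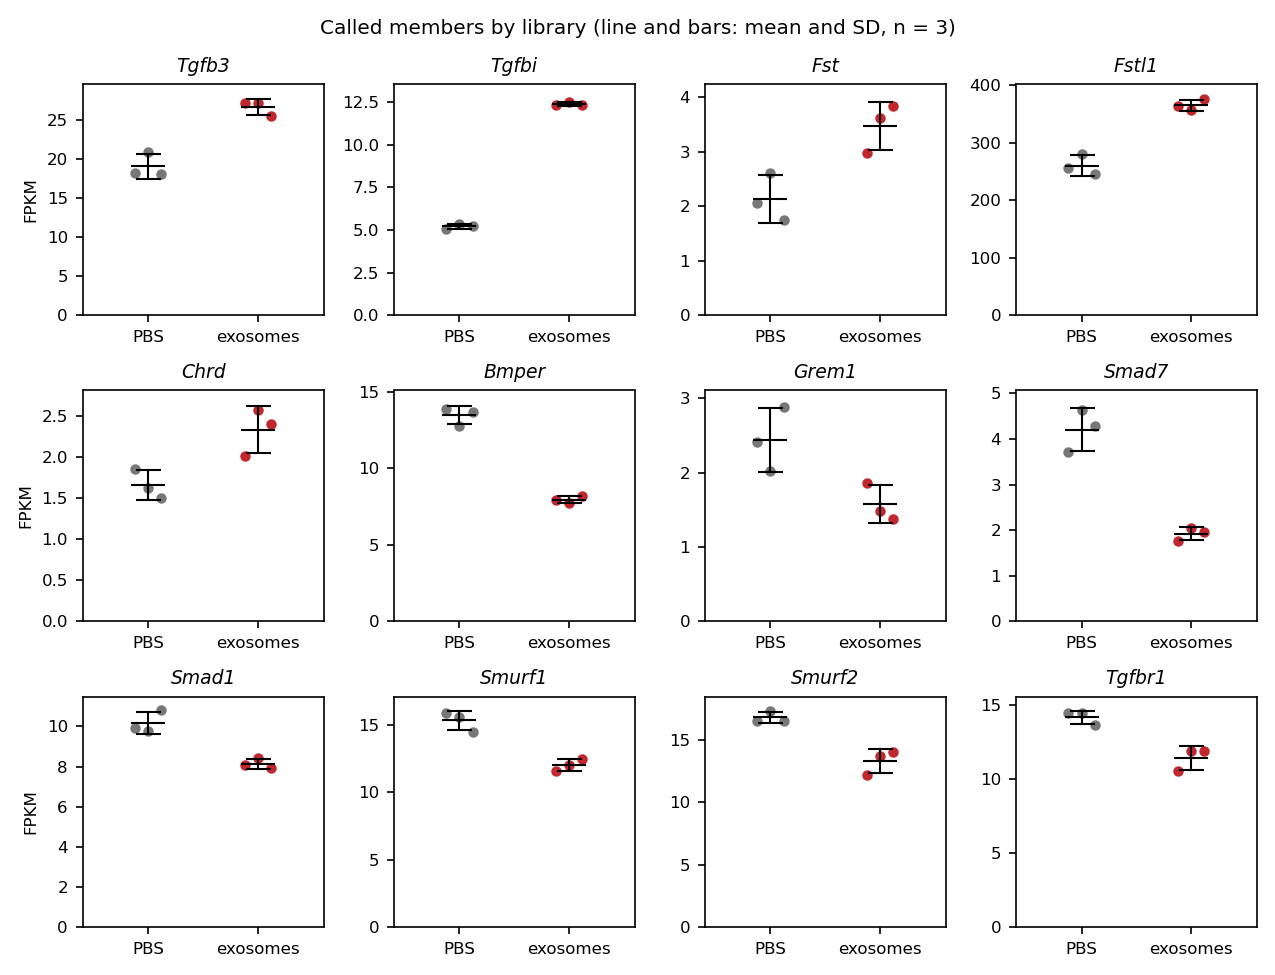
FPKM of 12 called genes in each library (points, in replicate order from left to right; lines and bars, mean and SD, n = 3 per group; axes start at 0). In each panel the 3 exosome values lie wholly above or wholly below the 3 PBS values.

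Of the 8 tested receptors 2 fell (25.0%, beside 18.4% of all tested genes) and 0 rose (beside 25.4%). Both that fell were type I receptors. Tgfbr1, the type I receptor of TGF-beta, fell from 14.4, 14.4 and 13.6 to 10.5, 11.9 and 11.9 FPKM (log2 change -0.28 ± 0.06, adjusted p = 0.00393). Acvr1, a type I receptor of BMPs and activins, was 13.4, 13.4 and 14.5 against 12.4, 12.6 and 11.7 FPKM. Its small change (-0.16 ± 0.05, adjusted p = 0.0385) lost the call without PBS library 1 (0.0608) or 3 (0.127) and without exosome library 1 (0.0691), 2 (0.0553) or 3 (0.127). Acvr1b, the type I receptor of activins, was 9.03, 7.27 and 9.71 against 7.89, 6.73 and 5.99 FPKM, with overlapping groups (-0.30 ± 0.11, adjusted p = 0.0585, but 0.00976 without PBS library 2, 0.0269 without exosome library 1 and 0.0488 with median-of-ratios scaling). Bmpr1a, a BMP type I receptor, differed by -0.02 ± 0.04 (adjusted p = 0.663), at 25.5 to 26.2 and 24.8 to 26.1 FPKM. Summed over all 7 type I genes the level was 62.8 ± 1.12 FPKM with PBS and 56.5 ± 1.07 with exosomes.

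None of the 3 tested type II receptors passed, with log2 changes of 0.03 to 0.16 (limma). Tgfbr2, the type II receptor of TGF-beta, was 37.5 to 41.4 FPKM with PBS and 39.7 to 43 with exosomes (adjusted p = 0.214). Bmpr2, the main type II receptor of BMPs, was 11.1 to 12.3 and 10.6 to 12.7 FPKM (adjusted p = 0.777), and Acvr2a, an activin type II receptor, 2.51 to 2.87 and 2.84 to 3.27 (adjusted p = 0.0876, and 0.0467 without PBS library 2). The type II sum, Acvr2b included, was 54.3 ± 2.5 and 57.4 ± 1.16 FPKM. Whether type I and type II receptors differ in their change was not tested. Tgfbr3, the co-receptor betaglycan, was the most abundant receptor gene at 61.3 to 68.2 and 55.9 to 64.0 FPKM (adjusted p = 0.238). Bmpr1b was listed at 0, and Acvr1c, Acvrl1, Acvr2b and Tgfbr3l stayed below the filter, at or under 0.969 FPKM.

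The Smads that carry the TGF-beta signal, Smad2, Smad3 and the shared partner Smad4, did not pass, with log2 changes of -0.03 to 0.01 (limma, adjusted p of 0.664 to 0.897). Smad2 was 8.01 to 8.24 FPKM with PBS and 7.94 to 8.32 with exosomes, Smad3 12.6 to 14.0 and 12.2 to 13.8, and Smad4 14.5 to 15.7 and 14.5 to 15.5. Among the Smads that carry the BMP signal, Smad1 fell from 9.94, 9.80 and 10.8 to 8.08, 8.41 and 7.92 FPKM. The groups were clearly apart (log2 change -0.29 ± 0.05, adjusted p = 0.00258). Smad5 rose from 10.1, 10.8 and 10.7 to 11.4, 12.2 and 12.1 FPKM (0.16 ± 0.05, adjusted p = 0.0349). That call ended without PBS library 1 (0.131) or 3 (0.0512) and without exosome library 2 (0.105) or 3 (0.0981), and the authors' deposited table did not make it (adjusted p = 0.168).

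Smad9, also a BMP Smad, lay below the filter at 0.722, 0.467 and 0.850 FPKM with PBS and 0.231, 0.184 and 0.280 with exosomes. Its exosome values were all lower, at 33.0 mean normalized counts against 99.3 in the authors' deposited table, which called it lowered (log2 fold -1.59, adjusted p = 0.000482). Tested without the filter it fell by 0.44 on the log2(FPKM + 1) scale (adjusted p = 0.0122). The sum of the 3 BMP Smads was 21.4 ± 0.870 FPKM with PBS and 20.2 ± 0.539 with exosomes, while the share of Smad5 in it went from 49.3% ± 1.78 to 58.6% ± 0.889 and that of Smad1 from 47.6% ± 0.940 to 40.2% ± 1.02.

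The inhibitory Smads moved unlike each other. Smad7, which blocks type I receptors and recruits Smurf ligases to them, was 3.71, 4.64 and 4.28 FPKM with PBS and 1.77, 2.04 and 1.97 with exosomes. The PBS level was 2.18 times the exosome level and the groups were far apart (log2 change -0.83 ± 0.08, adjusted p = 5.78e-05). The authors' deposited table gives a log2 fold of -1.16 for it from counts (adjusted p = 3.83e-14), a scale without the added 1, which shrinks changes of low values. Smad6, which acts mainly on BMP signalling and whose promoter window is printed above, was 2.11, 2.42 and 2.22 against 1.95, 2.10 and 2.26 FPKM, with overlapping groups (-0.07 ± 0.07, adjusted p = 0.474).

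Of the 6 other regulators of Smads, 3 fell, 1 rose and 2 did not pass, beside 18.4% lowered and 25.4% raised among all tested genes. The ubiquitin ligases Smurf1 and Smurf2, which mark Smads and receptors for breakdown, fell from 15.9, 15.6 and 14.5 to 11.6, 12 and 12.5 FPKM (log2 change -0.33 ± 0.05, adjusted p = 0.00124) and from 16.5, 17.3 and 16.5 to 12.2, 13.7 and 14.0 (-0.31 ± 0.06, adjusted p = 0.00246). Skil, a Smad corepressor that TGF-beta itself induces, fell from 5.40, 5.07 and 5.70 to 4.54, 4.21 and 4.39 FPKM (-0.25 ± 0.06, adjusted p = 0.00936). For all 3 genes each exosome value lay below each PBS value. Its relative Ski was 22.7 to 24.4 FPKM with PBS and 23.9 to 27.1 with exosomes (adjusted p = 0.243), and Tgfbrap1, which associates with TGF-beta receptors, 6.74 to 7.01 and 6.63 to 7.02 (adjusted p = 0.871).

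Pmepa1, a membrane protein that sequesters Smad2 and Smad3 and is induced by TGF-beta, rose from 6.36, 6.26 and 6.62 to 8.03, 7.79 and 6.89 FPKM (log2 change 0.21 ± 0.06, adjusted p = 0.0244). The call ended without PBS library 1 (0.0702) or 2 (0.0571) and without exosome library 1 (0.0867) or 2 (0.081), and the authors' deposited table did not make it (adjusted p = 0.119). Of Smad7, Skil and Pmepa1, known as feedback genes of TGF-beta, 2 fell and 1 rose. Among all tested genes 18.4% fell and 25.4% rose.

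Of the 3 genes that carry a ligand's name without being part of the chain, 1 rose, 1 fell and 1 did not pass. The shares of all tested genes were 25.4% raised and 18.4% lowered. Tgfbi, a matrix protein named for its induction by TGF-beta, had the largest change of the 43 tested genes, at 5.06, 5.35 and 5.22 FPKM with PBS and 12.3, 12.5 and 12.3 with exosomes. That is a 2.37-fold rise with almost no spread within groups (log2 change 1.11 ± 0.05, adjusted p = 6.9e-07). Bmp2k, a kinase named for its induction by BMP2, fell from 5.03, 4.79 and 5.74 to 4.03, 4.12 and 3.52 FPKM (-0.34 ± 0.08, adjusted p = 0.00626). Tgfb1i1, which encodes the focal adhesion protein Hic-5, was 6.30 to 7.39 and 7.02 to 7.90 FPKM (adjusted p = 0.123, but 0.0331 without PBS library 3).

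**Figure D4:**
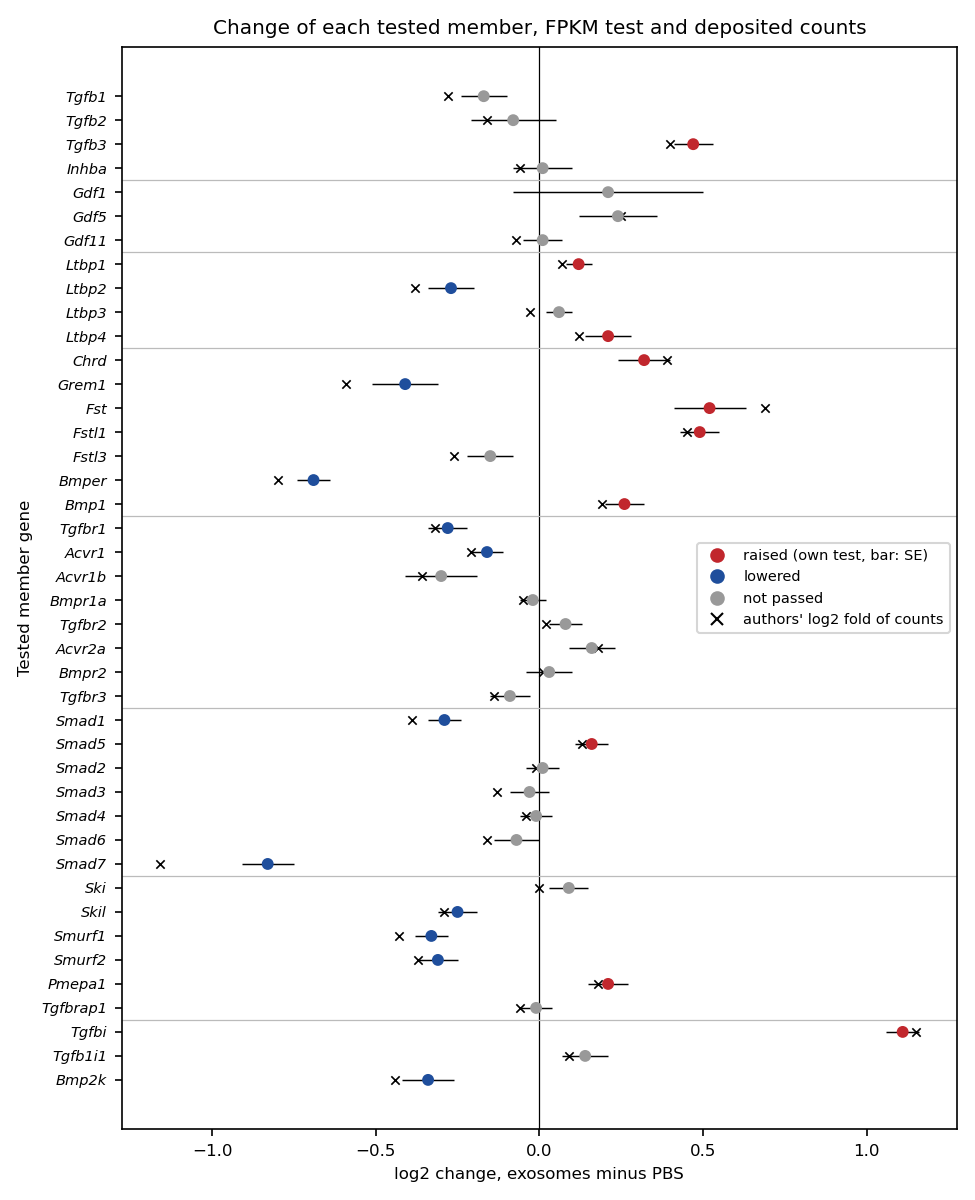
Log2 change (exosomes minus PBS, horizontal axis) of 42 of the 43 tested genes, ordered by role, on the log2(FPKM + 1) scale with its SE (dots and bars; red raised, blue lowered, grey not passed). Crosses give the authors' log2 fold from counts, which for Smad7 is -1.16 beside -0.83 and for Tgfbi 1.15 beside 1.11.

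Set beside the authors' deposited table, all 12 genes lowered here were called lowered there. Of the 10 raised here it called 6 raised and left 4 unpassed (Ltbp1, Ltbp4, Smad5 and Pmepa1). The same comparison over all genes is not given here. Raised genes made up 58.0% of all calls in the test used here and 47.9% in the authors' deposited table. The log2 fold of mean FPKM exceeded the authors' log2 fold by a median of 0.05, both over the 42 pathway genes and over all 10260 tested genes with both values.

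Genes that the pathway is known to induce or that act on it, but that the name rule leaves out, were read from 3 lists. These lists were chosen with earlier results of these data known. Their shares are therefore only described beside those of all genes, and no difference was tested. Of 28 tested genes induced by TGF-beta in fibroblasts, 9 rose (32.1%, beside 25.4% of all tested genes), 11 fell (39.3%, beside 18.4%) and 8 did not pass. The share called was 71.4% beside 43.8%, and the median log2 change was 0.0 beside 0.04. Bhlhe40, a transcriptional repressor, fell from 32.5, 35.5 and 30.9 to 11.6, 11.2 and 11.6 FPKM (-1.45 ± 0.06, adjusted p = 4.84e-07). Also lowered were Junb, an AP-1 subunit (-1.77 ± 0.08), Ctgf, a matricellular protein (-1.16 ± 0.13, adjusted p = 0.000387), and Tagln, an actin-binding protein of contractile cells (-0.21 ± 0.05, adjusted p = 0.00469). The raised genes of smallest p were Lox, a collagen cross-linking enzyme (0.92 ± 0.06), the collagen gene Col1a1 (0.80 ± 0.05) and Itgb5, the integrin subunit beta 5, at 37.1, 39.5 and 39.2 against 58.1, 55.5 and 60.5 FPKM (0.57 ± 0.05, adjusted p = 2.53e-05). Acta2, smooth muscle actin, was 126, 122 and 156 against 153, 138 and 136 FPKM (adjusted p = 0.456, and 0.0261 without PBS library 3).

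Of 14 tested genes induced by BMPs, 7 fell, 2 rose and 5 did not pass, beside 18.4% lowered and 25.4% raised among all tested genes. The share called was 64.3% beside 43.8%, and the median log2 change was -0.13. Id1, Id2 and Id3 encode inhibitors of differentiation that BMP Smads switch on directly. Id1 fell from 35.7, 29.3 and 40.3 to 7.66, 6.22 and 6.26 FPKM (-2.22 ± 0.12, adjusted p = 4.29e-06), Id2 from 41.2, 35.8 and 45.9 to 18.8, 17.1 and 18.6 (-1.13 ± 0.08, adjusted p = 1.28e-05) and Id3 from 52.8, 47.7 and 54.5 to 19.8, 17.4 and 18.4 (-1.43 ± 0.06, adjusted p = 6.9e-07). The 2 that rose were Id4, from 8.97, 9.22 and 8.03 to 10.4, 12.6 and 12.4 FPKM (0.39 ± 0.08, adjusted p = 0.00344), and Tnfrsf11b, which encodes the decoy receptor osteoprotegerin (0.38 ± 0.08, adjusted p = 0.0046). Other signals also regulate most of these genes.

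Of 42 tested regulators of the pathway outside the name rule, 8 rose, 9 fell and 25 did not pass, a share of 40.5% beside the 43.8% of all genes. Nrep, a small neuronal protein also known as P311, rose from 2.78 to 3.78 FPKM with PBS to 8.87 to 11.1 FPKM with exosomes (1.41 ± 0.10, adjusted p = 1.29e-05). Emilin1, a matrix protein that restrains processing of the TGF-beta precursor, rose by 0.61 ± 0.04 (adjusted p = 8.41e-06), and Nbl1, a DAN-family BMP antagonist, from 7.48, 7.37 and 6.54 to 11.9, 10.3 and 12.3 FPKM (adjusted p = 0.000201). Vasn, which encodes vasorin, a TGF-beta trap, fell from 93.7, 95.0 and 99.5 to 59.1, 58.0 and 53.7 FPKM (-0.75 ± 0.05, adjusted p = 5.85e-06). The corepressor gene Tgif1 and the ubiquitin ligase gene Nedd4l fell as well (-0.64 ± 0.05 and -0.50 ± 0.06, adjusted p = 1.29e-05 and 0.000255). The pseudoreceptor gene Bambi, at 0.502 to 0.659 and 0.295 to 0.640 FPKM, and the co-receptor gene Eng, at 0.113 to 0.171 and 0.171 to 0.249, lay below the filter.

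**Figure D5:**
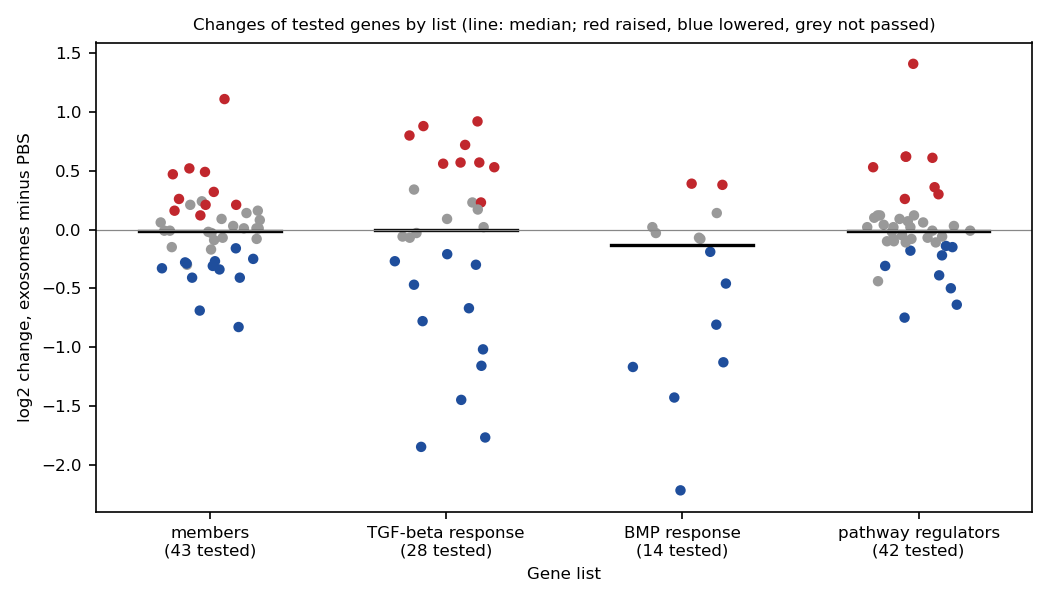
Log2 change (exosomes minus PBS, vertical axis) of each tested gene among the 43 pathway genes and the 3 lists outside the name rule (points, spread sideways for legibility; red raised, blue lowered, grey not passed; black line, median). The medians are -0.01, 0.0, -0.13 and -0.01, and the lowest point is Id1 at -2.22.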

How the data were processed

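The labels' protocols name the mirVana kit for RNA and the TruSeq Stranded mRNA kit for the 6 libraries. HISAT2 and Bowtie2, HTSeq, Cufflinks and StringTie, DESeq, SAMtools and Trimmomatic, with the build mm9, stand in the submitters' processing notes without role or version. Strand use in counting is not given in those sources. The authors deposited 1 table with an expression value per library, read here as FPKM because Cufflinks is named and the ratio of normalized count to expression value rose with transcript length (Spearman 0.77, 8958 genes). Per the file headers it also holds group means of normalized counts (a signal without the single libraries), their fold change (ratio), and the authors' p-values with adjustment. Library depth was estimated from what 1 read adds to these deposited count means.

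Testing was limited to genes reaching 1 FPKM in 3 libraries or more, and used log2(FPKM + 1) values and limma 3.58.1 in R 4.3.3 (trend, robust, two-sided, group as the only term, Benjamini-Hochberg over 10274 genes). The added 1 shrinks changes of low genes. The test was run on simulated data with few changed genes, unlike these libraries, where 43.8% of tested genes were called. That check therefore does not vouch for the calls given here. Errors are SD for FPKM and SE for log2 changes. A count test was not run, since the table used here has no counts per library. Alternatives were other pseudocounts, filters, scalings, variance model, replicate block, leaving out each library, and the authors' test. Genes of the name rule were named or counted (some results are not reported here), and from each outside list the 3 raised and 3 lowered of smallest p plus common reporters. Members and lists were chosen with earlier results of these data known. Overlapping genes can share reads, and promoter windows came from another build than mm9.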

Additional observations from a re-analysis of the deposited data

How the results depend on the processing

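Of the 22 pathway genes called, 15 (5 raised, 10 lowered) were called under each of the 15 alternatives that tested them, and the other 7 (Ltbp1, Ltbp2, Ltbp4, Chrd, Acvr1, Smad5, Pmepa1) lost the call under at least 1. How many of all called genes kept their call is not given here. These counts therefore cannot be read as a trait of the pathway genes. Under no alternative did a called gene change direction. Raised genes numbered 10 and were 6 in the authors' test and 5 to 9 when 1 library was left out; lowered genes numbered 12 and were 14 in the authors' test. With median-of-ratios scaling 8 were raised and 14 lowered, with Ltbp1 and Smad5 lost and Tgfb1 and Acvr1b gained. The median of the TGF-beta response list, 0.0, was -0.03 with median-of-ratios scaling and in the authors' test, and -0.03 to 0.03 when 1 library was left out. The BMP response list had 1 raised gene with at least 5 FPKM, and a median of -0.03 without the filter. The median of the regulators, -0.01, was -0.04 with at least 5 FPKM, -0.03 with median-of-ratios scaling and -0.03 to 0.01 when 1 library was left out, 0.01 being without exosome library 1. The cause of these shifts was not tested. Over all genes the raised share of calls was 58.0%, and 51.0% with median-of-ratios scaling, 62.3% with upper-quartile scaling and 47.9% in the authors' test.

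With the replicate block, 7 pathway genes were raised and 11 lowered, and Acvr1, Ltbp1, Ltbp4 and Smad5 lost the call. Counts over all genes with the block are not given here. Deviations of same-numbered libraries correlated at -0.12, -0.02 and -0.29, so the numbers were not taken as pairs. Counts per library were not used here, so genes at or under about 1 FPKM, Smad9 among them, rest on the authors' group means.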

Other observations

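Gdf9, a ligand best known from the egg cell, was listed at 0.138, 0.182 and 0.119 FPKM with PBS and 0.407, 0.230 and 0.358 with exosomes, too low for the filter. Tested without the filter its log2 change was 0.21 ± 0.05 (limma adjusted p = 0.0261), while the authors' deposited table did not call it (adjusted p = 0.168, mean normalized counts 16.2 against 7.64), and its RefSeq span overlaps that of Uqcrq.

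Gdf1 and Cers1, whose RefSeq spans overlap, were listed at 0.226, 1.90 and 1.23 FPKM and at 2.78, 1.90 and 1.23 FPKM in PBS libraries 1 to 3, so that the FPKM of both agreed in PBS libraries 2 and 3 but not in PBS library 1. In exosome libraries 1 to 3 Gdf1 was 1.41, 1.2 and 1.28 FPKM and Cers1 1.41, 1.21 and 1.28, nearly the same values. The authors' deposited table gives both genes 0 mean counts in both groups.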
